A study of Homo sapiens with 28 samples.

Results

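SOX17 encodes a transcription factor of endoderm, and its promoter is known to be silent in undifferentiated human embryonic stem cells. The contacts described here are those between a fixed point beside SOX17, the viewpoint at position 55373264 of chromosome 8, and restriction sites of the same chromosome more than 1 Mb away from it. Every such site in the deposited table was taken, 42569 of 837622 sites, of which 15046 lay toward position 1 (the side of the short arm) and 27523 toward the end of the long arm. A further 617 sites of chromosome 8 lay within 1 Mb, and 794436 lay on other chromosomes. The members were chosen by position alone, so no read count took part in the choice.

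The cells were Fucci human embryonic stem cells, a line in which fluorescent reporters follow the cell cycle, grown without serum or feeders in a defined medium with heregulin b1, activin A, LongR3 IGF-1 and FGF2. They were sorted into 4 fractions. The fraction labelled DN is early G1, the one labelled KO2 is late G1, AzL stands for S phase and AzH for G2/M. Each fraction gave 1 library in circular chromosome conformation capture (4C) from SOX17, 1 from GATA6, and 1 peak list for each of 4 histone marks. For 4C, HindIII cut the chromatin in nuclei and a first ligation joined neighbouring ends, then NlaIII and a second ligation closed small circles for PCR. All fractions come from the same reporter line, and a fraction is a gate on reporter colour and not a synchronised culture. Contact and peak files do not carry expression, so the labelled cell type was not checked against its markers here. Each fraction has 1 library and thus no replicate, so no p-value is given between fractions, and the intervals below are exact Clopper-Pearson 95% intervals that cover counting error over sites only. Values given 4 at a time follow the order early G1, late G1, S, G2/M.

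In 4C, DNA that lies close to the viewpoint in the nucleus is ligated to it, and sequencing counts which restriction sites were joined. Contact frequency falls with distance along the chromosome, so a distant region stands out only against other regions at its distance. Distant contacts are known to join regions of like chromatin, and in embryonic stem cells the silent promoters of developmental regulators, covered by the Polycomb mark H3K27me3, are known to meet one another over long distances. Reads at 1 site are PCR copies of few ligation events and carry no molecular identifiers. For that reason each site is also scored as occupied (at least 1 read) or not, which counts a ligation once however well it amplified.

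The libraries held 10719725, 10675688, 7491195 and 15566252 reads, of which 2868859, 2541069, 1575185 and 3265926 fell on the distant sites of chromosome 8. An occupied distant site had a median of 45, 54, 17 and 86 reads. The 100 sites with the most reads held 11.5%, 12.3%, 12.7% and 13.7% of the distant reads. The GATA6 viewpoint lies on another chromosome, and its 4 libraries touched 6.50%, 7.37%, 8.03% and 4.57% of the same distant sites. These libraries serve below, with all their reads counted, as the background of a viewpoint with no distance to these sites. At the SOX17 viewpoint site itself they held 5, 88, 19 and 0 reads. Distant sites with at least 1000 SOX17 reads had GATA6 reads in 7.67%, 10.3%, 13.9% and 6.54% of cases, beside 9.43%, 11.02%, 10.9% and 8.94% of all sites occupied from SOX17. GATA6 reads were thus not more frequent at the brightest SOX17 sites than at all occupied ones in 3 of the 4 fractions, and more frequent in S. Of distant sites without SOX17 reads, 4.08%, 5.16%, 5.29% and 2.97% had GATA6 reads. Sites occupied from SOX17 were thus more often occupied from GATA6 too. The GATA6 share was not flat along the chromosome: 9.26%, 12.4%, 13.6% and 8.93% of sites at 1 to 2 Mb from SOX17 had GATA6 reads, and 4.34%, 4.94%, 5.20% and 3.22% of those beyond 60 Mb.

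The libraries shared sites, and the early G1 and S libraries most of all. Of 5871 sites on other chromosomes with at least 100 reads in early G1, 5858 (99.8%) also had reads in S, whereas 39.6% had reads in late G1 and 38.4% in G2/M. Most of these shared sites were faint in S: 66.0% of the 5871 stood below 0.25 of the early G1 level after division by library totals, with a median of 0.049 S reads per early G1 read. On distant chromosome 8, 6398 of 6399 sites with at least 100 reads in early G1 also had reads in S, beside 78.8% in late G1 and 70.1% in G2/M. There 36.3% of the 6399 were below 0.25 of the early G1 level in S and 63.7% at or above it. All 3718 such sites of S had reads in early G1. Bright late G1 sites on other chromosomes were present in S in 77.0% of cases, with 36.9% of all of them below 0.25 of the level. Bright G2/M sites there had reads in early G1, late G1 and S in 94.0%, 90.2% and 98.3% of cases, but mostly at 0.25 of the level or more (60.9%, 74.6% and 80.4%). The source of these faint shared reads was not tested. The main results in occupied sites are therefore also given after a site was counted in a library only where its reads per library total reached at least 0.25 of the highest of the 4 SOX17 libraries, a step added after the data were seen and called the removal of faint shared reads. It took away 27.4%, 21.8%, 38.0% and 26.8% of the occupied distant sites. The step empties a site in every library below 0.25 of the highest, so it turns read differences between fractions into differences in occupied sites. More differing windows and lower correlations between fractions after it therefore do not bear on the source of the faint reads.

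**Figure D1:**
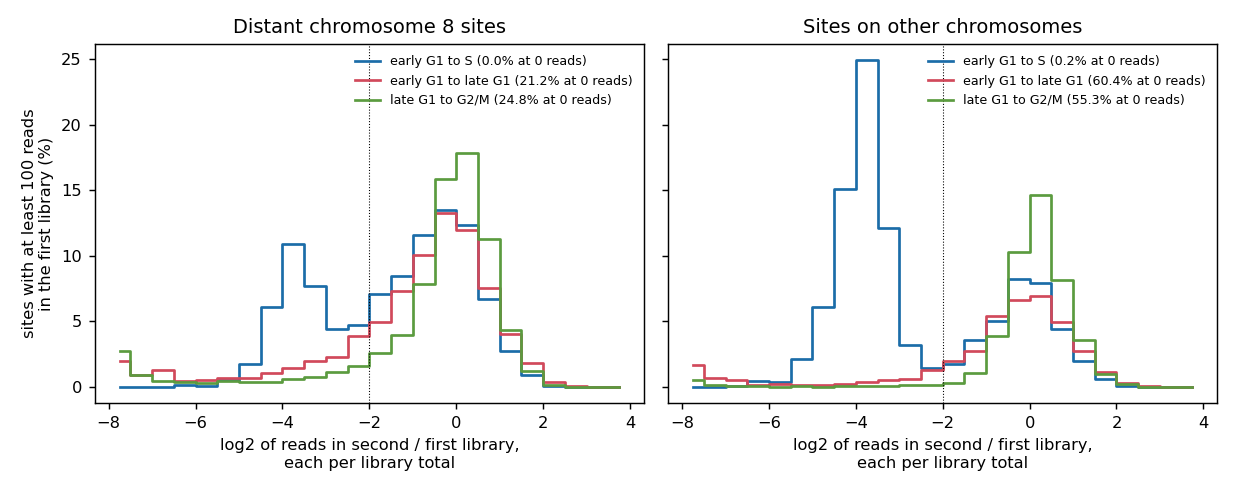
For sites with at least 100 reads in a first library, the share of sites (y axis, %) by the log2 ratio of reads in a second library to the first, each per library total (x axis), on distant chromosome 8 sites (left) and on other chromosomes (right); sites at 0 reads in the second library are given in the legend and the dotted line marks a ratio of 0.25. From early G1 to S a separate peak stands near a log2 ratio of -4 and almost no site is at 0 reads, whereas 60.4% of the sites on other chromosomes are at 0 reads from early to late G1.

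With all reads counted, distant sites were occupied most often in S and least often in G2/M. In early G1 19206 of the 42569 sites were occupied, 45.1% (44.6 to 45.6). In late G1 the number was 16093, 37.8% (37.3 to 38.3). In S it was 20773, 48.8% (48.3 to 49.3), from the smallest library. In G2/M it was 11426, 26.8% (26.4 to 27.3), from the largest library. Thinning every library to the smallest total left the order in place, at 43.9%, 36.6%, 48.8% and 24.5%. After the removal of faint shared reads the shares were 32.7%, 29.6%, 30.3% and 19.7%. Early G1 was then above S, as it also was with at least 10 reads asked of an occupied site (32.8% against 29.7%); late G1 and S differed by 0.70 percentage points at 29.6% (29.1 to 30.002) and 30.3% (29.8 to 30.7), and G2/M remained lowest.

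The same order appeared on other chromosomes, where 7.55%, 6.44%, 8.23% and 4.37% of sites were occupied. Distant sites of chromosome 8 were thus occupied 5.98, 5.87, 5.93 and 6.14 times as often as sites on other chromosomes, a ratio that moved little between fractions while the shares themselves moved 1.82-fold. The removal of faint shared reads gave ratios of 5.98, 5.37, 5.83 and 5.63. From GATA6 the distant chromosome 8 sites were also occupied least in G2/M and most in S. The lower share of occupied sites in G2/M was therefore seen from both viewpoints, and on other chromosomes too. A smaller number of cells or ligation events behind a library cannot be told apart from fewer distant contacts per cell.

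Reads showed a different order, in which S was not highest. Of the chromosome 8 reads more than 10 kb from the viewpoint, 43.8%, 41.2%, 36.8% and 36.8% lay beyond 1 Mb, and from GATA6 on its own chromosome 30.9%, 27.7%, 24.4% and 25.6%. Both viewpoints had the larger shares in G1, with S and G2/M level from SOX17 and S lowest from GATA6. Within these distant reads, 26.0%, 26.5%, 24.8% and 20.9% lay beyond 20 Mb, and 25.5%, 26.4%, 23.7% and 20.9% after the removal of faint shared reads. In this share the G1 fractions were above S, and S above G2/M. The GATA6 libraries gave 14.7%, 15.7%, 12.3% and 10.7% for the same quantity, with the fractions in the same order. Reads on other chromosomes followed it nearly, at 20.8%, 20.5%, 16.3% and 14.7% of the SOX17 library totals and 28.3%, 28.8%, 23.4% and 21.6% of the GATA6 totals. Beyond 20 Mb, and on other chromosomes, both viewpoints thus had the largest shares of reads in G1 and the smallest in G2/M, with 1 library each and no estimate of the spread between sorts.

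The fractions lay closest together near the viewpoint. Between 1 and 2 Mb nearly all sites were occupied in every library, 96.4%, 96.0%, 96.0% and 95.9%. Between 5 and 10 Mb the shares were 83.7%, 74.7%, 85.8% and 62.4%. Between 20 and 40 Mb they were 46.9%, 37.6%, 51.6% and 22.8%. Beyond 60 Mb they were 16.2%, 13.3%, 19.3% and 7.94%, which is 2.14, 2.06, 2.35 and 1.82 times the share on other chromosomes. Even in this outermost band the sites were thus occupied more often than sites of other chromosomes. With faint shared reads removed the values beyond 60 Mb were 9.99%, 10.8%, 11.3% and 5.86%. G2/M was already lowest between 2 and 5 Mb (91.0%, 85.0%, 92.6% and 79.6%). In percentage points its distance from the others was widest between 10 and 40 Mb, with 73.4%, 59.5%, 76.6% and 44.6% at 10 to 20 Mb, and narrower again beyond.

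Reads per site fell 119-fold to 180.0-fold over the same range. They were 1184, 1104, 747 and 1646 between 1 and 2 Mb, and 8.94, 9.31, 5.08 and 9.15 beyond 60 Mb. Relative to its own level between 1 and 2 Mb, each library kept 1.68%, 1.70%, 1.43% and 1.15% at 40 to 60 Mb. Beyond 60 Mb it kept 0.75%, 0.84%, 0.68% and 0.56%. G2/M was lowest at each of these distances.

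**Figure D2:**
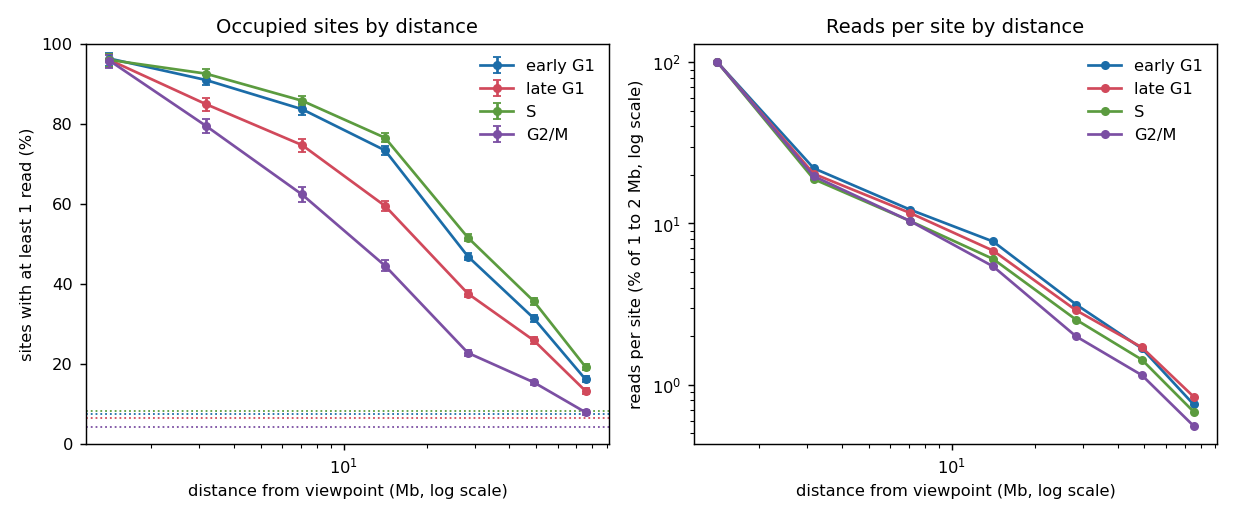
Left, share of sites with at least 1 read (y axis, %) by distance from the SOX17 viewpoint (x axis, Mb, log scale), 1 line per fraction with exact 95% intervals and the level on other chromosomes as a dotted line of the same colour; right, reads per site as % of the level between 1 and 2 Mb, both axes log. All fractions start near 96% and lie apart from 2 Mb on, down to 7.94% in G2/M and 19.3% in S beyond 60 Mb.

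The centromere lies toward position 1, in the stretch without a restriction site from 43838844 to 46838891 that begins 8.53 Mb from the viewpoint and ends 11.5 Mb from it. Beyond 10 Mb, where both sides could be compared at equal distance, the occupied share toward position 1 was 0.987, 0.959, 0.998 and 1.05 times that toward the long arm end, each a mean over 4 distance bands, and 0.998 on average over the fractions. Sites across the centromere were thus touched about as often as sites at the same distance on the viewpoint's own arm. The bands differed among themselves. At 10 to 15 Mb the ratios were 0.923, 0.841, 0.931 and 0.956, and at 22.5 to 33.75 Mb they were 1.22, 1.29, 1.23 and 1.44. GATA6, which has no side here, gave 1.45, 1.57, 1.93 and 1.38 in the latter band and a mean of 1.41 over all bands, so the short arm was touched more often from another chromosome as well. The removal of faint shared reads left the SOX17 mean at 1.01.

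The distant sites were then grouped into windows of 250 kb, and each window was divided by the mean over sites of both sides at distances within a factor of 1.5 of its own. Of 568 windows, 566 held at least 20 sites and were compared. A window was called high or low at 1.5 times the mean at its distance or at the mean divided by 1.5. Because most near sites were occupied in every library, only 433 windows, all at least 19.0 Mb away, had enough unoccupied sites expected to reach the high call in all 4 fractions. The median number of occupied sites expected per window was 29.6, 24.0, 33.1 and 14.4, and beyond 40 Mb 18.9, 15.6, 21.7 and 9.34.

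In occupied sites 15 of the 566 windows (2.65%) were high in all 4 fractions. Toward position 1 lay 13 of the 15, beside 207 of all 566. The 15 fell into 2 runs of 5 neighbouring windows, chr8:7000001-8250000 and chr8:11250001-12500000, and 5 single windows. The single windows began at 500001, 23250001, 26250001, 86500001 and 124250001. From GATA6, 14 of the 15 also stood at least 1.5 times above the mean, beside 14.1% of all windows. The exception was chr8:124250001-124500000, at 0.855. After the removal of faint shared reads 11 windows were high in all 4 fractions, 10 of them among the 15. Late G1 and G2/M alone, which leave out the pair of libraries with the strongest sharing, gave 23. A call in 2 libraries is a looser rule than a call in 4, so this count could not fall below 15.

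Another 33 windows (5.83%) were low in all 4 fractions, all between 25 and 82.5 Mb away. Toward the long arm end lay 29 of the 33, beside 359 of all 566 windows. These shares are not at matched distance and show no preference for a side. The side toward position 1 ends 55.4 Mb from the viewpoint, so only long arm windows lie beyond that. The median distance was 58.8 Mb for the 33 and 37.6 Mb for all 566. None of the 33 reached 1.5 times the mean from GATA6, beside 14.1% of all windows. In 32 the GATA6 value was below 1, as in 326 of all 566. Of the 33 windows 18 held no H3K4me3 peak in any fraction, beside 195 of all 566. After the removal of faint shared reads 22 windows were low in all 4, 15 of them among the 33. The lowest window was chr8:115750001-116000000, with 6, 2, 8 and 4 of 79 sites occupied where 19.2, 15.8, 22.1 and 9.43 were expected. Its ratios were 0.330, 0.153, 0.375 and 0.453, and without faint shared reads 0.350, 0.038, 0.487 and 0.344. It held no H3K27me3 and no H3K4me3 peak. The longest run of low windows was chr8:111750001-113250000, 6 windows around 57.1 Mb with mean ratios of 0.408 to 0.576 and no H3K27me3.

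The run at chr8:7000001-8250000, around 47.7 Mb from the viewpoint, was high in occupied sites but not in reads. Its strongest window, chr8:7000001-7250000, had 48, 47, 50 and 29 of 68 sites occupied, 2.32, 2.76, 2.13 and 2.81 times the mean, and the highest mean ratio of all windows. Without faint shared reads the ratios were 3.004, 3.20, 2.75 and 3.12. Its reads per site were 23.7, 30.4, 14.97 and 29.5, only 1.22, 1.65, 1.38 and 1.58 times the mean at that distance. Over the 5 windows the mean read ratios lay between 0.966 and 1.45, and the GATA6 ratios between 1.67 and 2.75. Reads in this run thus stood less far above the distance mean than occupied sites did. H3K27me3 covered on average 0.809 kb of each window there.

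The run at chr8:11250001-12500000 held the window with the most reads against its distance, chr8:11500001-11750000, 43.7 Mb away and across the centromere. It had 169, 171, 92.8 and 172 reads per site where the mean at that distance was 22.8, 21.1, 12 and 20.7, a ratio of 7.15, 7.77, 7.20 and 7.97. All 4 fractions lay within 1.12-fold of each other, and the next window by reads reached a mean ratio of 3.31. In occupied sites it was less exceptional, with 43, 41, 45 and 19 of 59 sites and ratios of 2.14 (1.78 to 2.49), 2.47 (2.03 to 2.93), 1.99 (1.67 to 2.28) and 1.93 (1.27 to 2.80). With faint shared reads removed these were 2.54, 2.68, 2.12 and 1.87. The brightest site of the window carried 23.8%, 24.2%, 27.9% and 25.7% of its reads.

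This window also held one of the long H3K27me3 domains of the chromosome, with 44.3, 41.1, 38.6 and 40.3 kb of the window in peaks. In early G1 the longest peak ran from 11533376 to 11575800, 42.4 kb. The 8, 6, 6 and 6 sites inside the peaks of the same fraction held 727, 972, 562 and 1091 reads per site, against 81.5, 80.0, 39.7 and 68.2 at the other sites of the window. They held 58.3%, 57.9%, 61.6% and 64.4% of its reads. Even the sites outside the peaks were above the mean at that distance.

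Inside the domain the same 3 sites were brightest in every fraction. The site at 11550675 had 2374, 2435, 1526 and 2609 reads. The site at 11549258 had 1960, 2059, 1034 and 2609 reads. The site at 11540103 had 919, 1159, 738 and 1139 reads. A further bright site at 11654078, with 722, 864, 496 and 1480 reads, lay 99.5 kb from the centre of the early G1 peak and in no H3K27me3 peak. The same domain was bright from GATA6, with 166, 217, 85.3 and 160 reads per site inside the peaks and 16.96, 14, 2.36 and 2.09 outside. The sites were not equally bright, since 11550675 had 39, 77, 32 and 108 GATA6 reads while 11540103 had 353, 1126, 428 and 827. The site at 11654078 had 0 GATA6 reads in all 4 libraries.

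**Figure D3:**
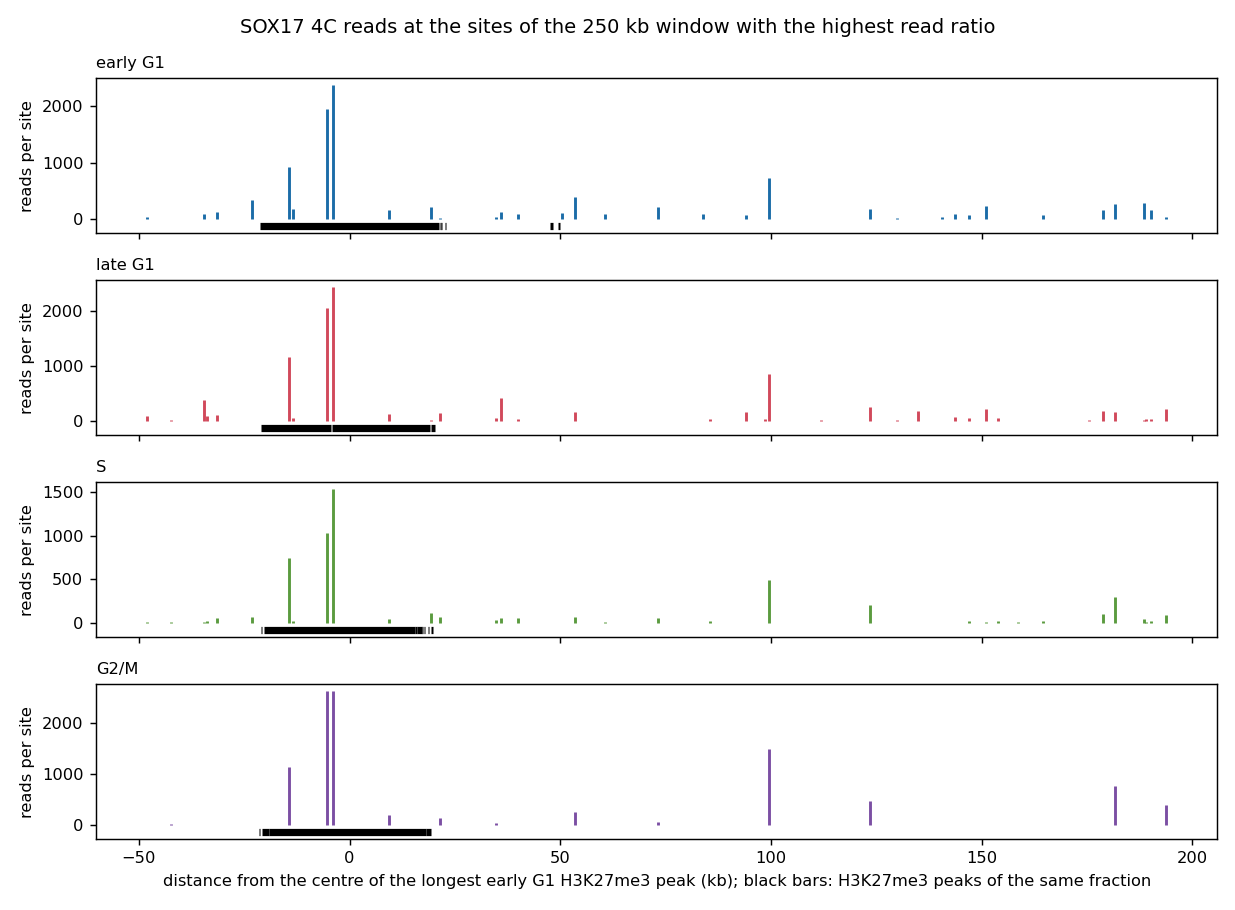
SOX17 reads at each site (y axis) of the window with the highest read ratio against distance from the centre of the longest early G1 H3K27me3 peak (x axis, kb), 1 panel per fraction with its own scale; black bars are H3K27me3 peaks of the same fraction. Among the sites inside the domain the same 3 are tallest in each fraction, with 1526 reads at most in S and 2609 in G2/M.

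In reads 37 windows (6.54%) were high in all 4 fractions, 7 of them among the 15 that were high in occupied sites. Leaving out the brightest site of every window reduced the 37 to 12. The window chr8:99750001-100000000, 44.5 Mb away on the viewpoint's own arm, had read ratios of 2.82, 3.28, 2.64 and 2.84 and a GATA6 ratio of 1.26 in occupied sites. It too held a long H3K27me3 domain, with 17.9, 17.7, 15.6 and 17.03 kb in peaks. The 5, 6, 5 and 5 sites inside held 223, 348, 173 and 397 reads per site, against 52.0, 43.6, 21.8 and 33.2 outside. From GATA6 the inside sites had 0 reads in 3 fractions. In late G1 they had 118 reads, all at 1 site, or 19.7 per site. Outside there were 6.42, 4.66, 0.636 and 0.288 GATA6 reads per site. With so few inside sites and so low a share of sites touched from GATA6, empty sites are likely by count alone. These values therefore do not show that the domain was particular to SOX17.

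Of the 37 windows high in reads, 6 held more than 10 kb of H3K27me3 on average and 11 held none. Of all 566 windows, 21 held more than 10 kb and 337 held none. Windows high in reads thus held H3K27me3 more often than all windows did, though not in every case. The window chr8:141750001-142000000, 86.5 Mb away, had read ratios of 3.29, 2.96, 3.50 and 3.54 with no H3K27me3 and no H3K4me3 peak in any fraction. Its occupied sites numbered 27, 10, 31 and 9 of 55, so early G1 and S were high (2.92 and 2.84) and late G1 less so (1.35), and without faint shared reads the ratios were 2.55, 1.17, 2.03 and 1.48. The window chr8:128750001-129000000 had read ratios of 1.37, 3.37, 3.21 and 4.0, with H3K27me3 at 0.20 kb in S and none elsewhere. The window chr8:124250001-124500000 had 23, 15, 24 and 16 of 54 sites occupied, ratios of 1.99, 1.58, 1.79 and 2.68 (1.63, 1.45, 1.75 and 2.26 without faint shared reads), and H3K27me3 over 13.8, 16.3, 4.62 and 9.97 kb. The longest peak there was 7.2, 11.2, 0.675 and 3.23 kb. Only 3, 4, 1 and 2 of the 54 sites lay inside a peak, and they held 1.83%, 0, 10.97% and 0.22% of the reads of the window. In S the 1 inside site had 79 reads, against 12.1 per site outside. In the other fractions reads per site were lower inside than outside.

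Over all windows the contacts ran with the marks, though weakly. Windows with no H3K4me3 peak, 195 in number, had median ratios of occupied sites of 0.854, 0.843, 0.842 and 0.821. The 106 windows with more than 3 peaks on average had 1.19, 1.22, 1.18 and 1.21. For H3K27me3 the 337 windows without a peak had medians of 0.949, 0.942, 0.9502 and 0.911, and the 21 windows with more than 10 kb had 1.32, 1.33, 1.27 and 1.24. Without faint shared reads the windows with more than 3 H3K4me3 peaks had 1.17, 1.20, 1.22 and 1.15, and those with more than 10 kb of H3K27me3 had 1.27, 1.40, 1.35 and 1.16. GATA6 moved along, with medians of 0.769 and 1.08 for no and many H3K4me3 peaks, and of 0.880 and 1.47 for no and much H3K27me3. Across the 566 windows the mean SOX17 ratio had a Spearman correlation of 0.48 with the number of H3K4me3 peaks, 0.31 with H3K27me3 length, 0.49 with the GATA6 ratio and -0.31 with the number of restriction sites. Neighbouring windows are not independent and share site density, so these are descriptions.

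At single sites the marks gave like values. Occupied sites within 5 kb of an H3K27me3 peak of the same fraction numbered 540 of 976, 568 of 1112, 490 of 800 and 320 of 853. These were 1.26 (1.18 to 1.33), 1.33 (1.252 to 1.41), 1.22 (1.15 to 1.29) and 1.39 (1.27 to 1.52) times the number expected at their distances. For H3K4me3, the mark of active and poised promoters, the ratios were 1.28, 1.32, 1.23 and 1.40. For H3K27ac, on active promoters and enhancers, they were 1.26, 1.247, 1.27 and 1.36, and for H3K4me1, on enhancers, 1.26, 1.18, 1.22 and 1.34. Every mark thus stood between 1.18 and 1.40, with no single ranking of the 4 marks that held in all fractions. The highest ratio of each mark was in G2/M, where the occupied share was lowest and the ceiling on the ratio therefore highest.

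From GATA6 the sites beside H3K27me3 were occupied 1.61, 1.76, 1.95 and 1.97 times as often as all distant sites. H3K4me3 sites gave 1.84, 1.47, 1.54 and 1.76, H3K27ac sites 1.41, 1.251, 1.52 and 1.20, and H3K4me1 sites 1.53, 1.07, 0.987 and 0.690. At H3K27me3 the SOX17 ratios stand on expected shares of 44.1%, 38.4%, 50.2% and 26.9%, and the GATA6 ratios on 6.50%, 7.37%, 8.03% and 4.57%. The SOX17 ratios thus have a lower ceiling, and the sizes from the 2 viewpoints cannot be ranked. The excess of occupied sites beside H3K27me3 and H3K4me3 was therefore not particular to the SOX17 viewpoint. With faint shared reads removed the SOX17 ratios at H3K27me3 were 1.31, 1.42, 1.31 and 1.35, and G2/M was no longer highest. Those at H3K4me3 were 1.33, 1.38, 1.29 and 1.40, those at H3K27ac 1.29, 1.254, 1.36 and 1.38, and those at H3K4me1 1.28, 1.17, 1.26 and 1.34.

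**Figure D4:**
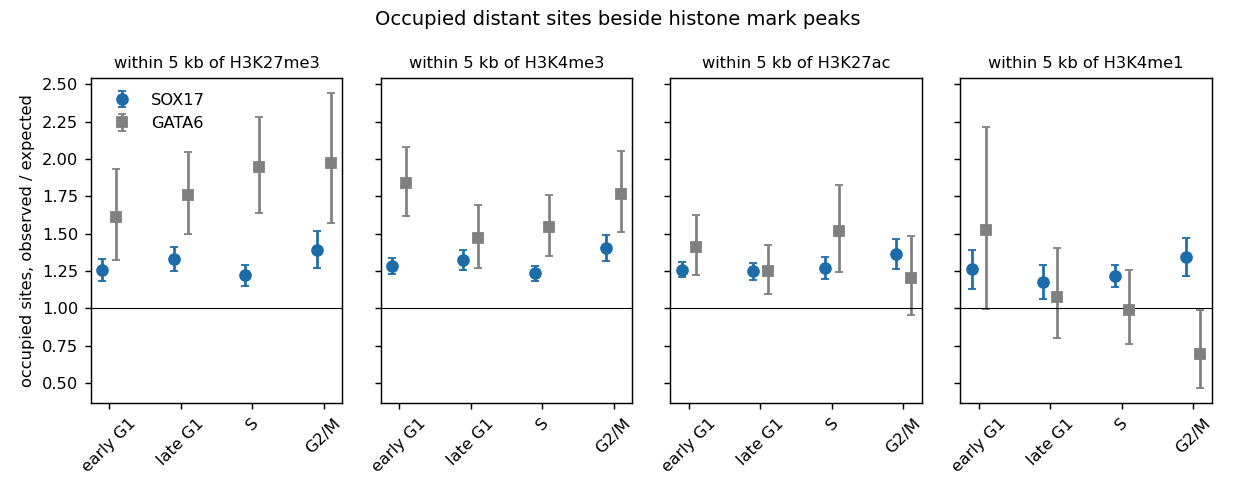
Occupied distant sites within 5 kb of a peak of the same fraction divided by the number expected (y axis), by fraction (x axis) and mark (panels), for the SOX17 viewpoint (circles, against the mean at each distance) and the GATA6 viewpoint (squares, against its mean over all distant sites), with exact 95% intervals. SOX17 lies between 1.18 and 1.40 throughout, and GATA6 spans 0.690 to 1.97.

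Long H3K27me3 peaks carried a larger excess. Near peaks of at least 5 kb, 84 of 131, 91 of 143, 43 of 43 and 52 of 91 sites were occupied, 1.499 (1.29 to 1.69), 1.85 (1.61 to 2.08), 1.76 (1.62 to 1.76) and 2.27 (1.84 to 2.68) times the expected number. In S all 43 sites were occupied, so 1.76 is the highest ratio they could reach. Without faint shared reads the ratios were 1.81, 2.11, 2.61 and 1.99. GATA6 gave 3.17, 2.94, 5.79 and 4.33 at these sites. The peaks counted were few (33, 37, 17 and 29), and several sites share a peak, so these sites are not independent.

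Whether sites inside long domains were brighter than their neighbours in general was read from the 21 windows with more than 10 kb of H3K27me3. Of the windows that had at least 1 site inside a peak, 10 of 18, 10 of 19, 11 of 16 and 9 of 17 had more reads per site inside than outside. Brighter sites inside than outside, as in the pair of domains described above, were thus found in 9 to 11 windows of each fraction and not in the rest. Occupied shares inside the peaks were 69.6%, 63.4%, 88.4% and 53.8%, against 60.04%, 50.4%, 61.6% and 32.6% outside. Without faint shared reads 10, 10, 11 and 7 windows had more reads per site inside.

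The fractions were compared window by window along the cycle, with a difference of at least 1.5-fold between their distance-corrected ratios as the call. From early to late G1, 17 windows (3%) were higher and 25 (4.42%) lower in occupied sites. From late G1 to S, 21 (3.71%) were higher and 10 (1.77%) lower. From S to G2/M, 19 (3.36%) were higher and 47 (8.30%) lower. From G2/M to early G1, 50 (8.83%) were higher and 19 (3.36%) lower. Late G1 and G2/M, a pair without the early G1 and S libraries, differed in 26 (4.59%) and 35 (6.18%). Early G1 and S, the pair with the most sharing, differed in 5 windows, and in 76 once faint shared reads were removed. The removal turns read differences into differences in occupied sites, so the step itself favours such a rise.

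The exact intervals of the 2 fractions compared overlapped in nearly all of these windows. Among all the called windows of the 4 steps, the exact intervals of the pair lay apart in 1 window, from S to G2/M, and in none of the called windows of the other steps. That window was chr8:12250001-12500000, 43.0 Mb away, named for this after its values were seen. In S 40 of 53 sites were occupied, a ratio of 1.94 (1.61 to 2.25), and in G2/M 29, a ratio of 3.20 (2.46 to 4.16). Without faint shared reads the ratios were 2.74 and 3.11, less than 1.5-fold apart. Below the 1.5-fold call the exact intervals lay apart in 1, 3, 3 and 1 further windows of the 4 steps, 5 windows in all, each at most 10.0 Mb away. In chr8:47000001-47250000, 8.25 Mb away, 47 of 100 sites were occupied in late G1 and 77 in S, ratios of 0.657 (0.514 to 0.797) and 0.923 (0.809 to 1.02), and of 0.661 and 1.02 without faint shared reads. In chr8:65250001-65500000, 10.0 Mb away, the intervals lay apart in each of the 4 steps, with 94, 95, 92 and 76 of 101 sites occupied and ratios of 1.19, 1.42, 1.13 and 1.43. The other windows were chr8:61500001-61750000 from late G1 to S, and chr8:49500001-49750000 and chr8:58750001-59000000 from S to G2/M. In these and in chr8:65250001-65500000 nearly all sites were occupied in at least 1 fraction of the pair, which caps the ratio at a lower value where more sites are expected. Of the called windows, 97.6%, 90.3%, 77.3% and 81.2% lay beyond 40 Mb, where few occupied sites were expected per window. Beyond 40 Mb lay 264 of all 566 windows. Nearer windows have higher occupied shares, which limits the fold they can reach. The removal of faint shared reads, a step that itself favours more differences, raised the counts to 79, 86, 112 and 134 windows. Of the earlier windows, 30, 21, 40 and 57 were among them. In reads per site 146 (25.8%), 107 (18.9%), 114 (20.1%) and 188 (33.2%) windows differed at least 1.5-fold, and of the windows called in occupied sites 26 of 42, 13 of 31, 24 of 66 and 37 of 69 also differed in reads in the same direction. Of the 1.5-fold differences, those outside chr8:12250001-12500000 thus had overlapping intervals. Overlap of 2 separate intervals does not show that a difference is within counting error. The same sites are scored in both libraries, and the differences themselves were not tested.

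The windows with the largest steps rested on few sites. In chr8:122250001-122500000, 67.0 Mb away, 15, 4, 15 and 4 of 70 sites were occupied, with ratios of 0.982 (0.573 to 1.51), 0.345 (0.0881 to 0.781), 0.849 (0.493 to 1.30) and 0.555 (0.145 to 1.29). In chr8:128000001-128250000, 72.8 Mb away, 16, 5, 19 and 3 of 91 sites were occupied, with ratios of 0.948, 0.382, 0.959 and 0.391. In both, early G1 and S were above late G1 and G2/M. Without faint shared reads the ratios were 1.03, 0.334, 0.780 and 0.745 in the former window and 1.13, 0.299, 1.12 and 0.373 in the latter.

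Other large steps had still fewer. In chr8:126500001-126750000, 3, 9, 11 and 4 of 79 sites were occupied, and early G1 was lowest at a ratio of 0.217 against 0.708 in late G1. In chr8:145000001-145250000, near the end of the long arm, 3, 4, 4 and 0 of 28 sites were occupied, and in chr8:139750001-140000000 9, 6, 10 and 1 of 55. In the last of these reads did not follow, with read ratios of 1.39, 1.57, 1.65 and 1.75, because 1 site held all G2/M reads.

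The landscape as a whole was shared by the fractions. Over the 566 windows the Spearman correlation of occupied ratios was 0.82 between early and late G1, 0.85 between late G1 and S, 0.75 between S and G2/M, 0.74 between G2/M and early G1, 0.76 between late G1 and G2/M, and 0.94 between early G1 and S. With faint shared reads removed, a step that itself favours lower values, these were 0.69, 0.70, 0.66, 0.58, 0.64 and 0.71. In reads they were 0.72, 0.83, 0.88, 0.72, 0.83 and 0.81. At single sites, 8527 of the 24675 distant sites occupied in any library were occupied in all 4, 34.6%, and 15.8% after the removal. On other chromosomes the share was 16.0%, and 8.08% after it. Sites occupied in early G1 and S alone numbered 4822 (19.5%), and 1695 after the removal.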

How the data were processed

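The authors deposited a table of counts, whole-number 4C reads per restriction site, and 1 peak list per mark and fraction, of which only positions were used. The submitters' processing notes name Bowtie 0.12.7, and list hg19 beside mm9 with no word on their use. How reads were assigned to sites, and the peak caller, were not given in the sources used here. Positions were read as hg19, since sites reach 146302707, past the last gene end of chromosome 8 in the GRCh38 table at hand (145056030). There is no hg19 annotation here, so windows carry no gene names and no sequence is shown. No per-sample column was left unused (0).

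Windows, sites within 5 kb of a peak and distances were computed with scipy 1.17.1, pandas 2.3.3, numpy 2.4.6 and matplotlib 3.10.9 under Python 3.11.15. Window ratios were (occupied + 0.5)/(expected + 0.5) and, for reads per site, (reads + 1)/(mean + 1). Near the long arm end the distance mean draws on nearer sites, which lowers all ratios there and favours low calls. Raised windows also lift their own mean, which understates high ratios, as seen on simulated data with the same decay on both sides. The mean pools both sides, though the side toward position 1 ends at 55.4 Mb. With each side on its own, chr8:7000001-7250000 had a mean ratio of 2.05 instead of 2.49. The values for chr8:11500001-11750000 were 1.83 instead of 2.12, and for chr8:500001-750000 1.52 instead of 2.03. That of chr8:124250001-124500000 rose from 1.97 to 2.21. Windows high in all 4 fractions then numbered 16. The 5 lowest windows had mean ratios of 0.304 to 0.417, and of 0.362 to 0.438 with a distance factor of 1.25. The count of windows low in occupied sites was recomputed only without faint shared reads. No p-value was computed. Named windows are the 10 highest and 5 lowest in occupied sites, the 5 highest in reads, and the 3 most changed each way per step, of which a part is given. The 3 sites and the site outside the domain in the brightest window, and its comparison of inside with outside, were chosen after their values were seen. The sites, windows and comparisons were chosen with earlier results of these data known.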

Additional observations from a re-analysis of the deposited data

How the results depend on the processing

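Of 150 recomputed values for 22 results, 85 kept to within the counting interval or 1.5 times the count, and 65 moved. All 55 recomputed mark ratios stayed above 1. The occupied shares became 41.8%, 34.4%, 43.5% and 23.3% with at least 2 reads, 32.8%, 29.1%, 29.7% and 19.7% with at least 10 reads, 43.9%, 36.6% and 24.5% (early G1, late G1, G2/M) when thinned to the smallest library, 44.4%, 37.0%, 48.1% and 25.8% beyond 2 Mb, and 32.7%, 29.6%, 30.3% and 19.7% without faint shared reads. G2/M was lowest in each. S, highest with all reads, was below early G1 with at least 10 reads and without faint shared reads. Windows high in all 4 fractions numbered 41 at 100 kb, 5 at 500 kb and 23 from late G1 and G2/M alone for occupied sites, and 106, 14 and, without the brightest site, 12 for reads. Windows differing along the 4 steps, in the order early to late G1, late G1 to S, S to G2/M, G2/M to early G1, numbered 93, 100, 110 and 126 with at least 10 reads, 79, 86, 112 and 134 without faint shared reads, 270, 213, 350 and 379 of 1409 windows at 100 kb and 9, 7, 15 and 20 of 284 at 500 kb. With at least 2 reads late G1 to S gave 49. In reads they numbered 624, 520, 564 and 686 at 100 kb and 39, 21, 29 and 61 at 500 kb, and S to G2/M gave 205 without the brightest site. The ratio at H3K27me3 became 1.38, 1.43 and 1.40 (early G1, late G1, S) with at least 10 reads, 1.42 and 1.31 (late G1, S) without faint shared reads, 1.56, 1.44 and 1.76 (late G1, S, G2/M) inside a peak, 1.24 and 1.22 (late G1, G2/M) within 25 kb, and 1.499, 1.85, 1.76 and 2.27 at peaks of at least 5 kb. Smaller windows hold fewer sites, so counts of windows past a fold follow window size by construction. The removal of faint shared reads turns read differences between fractions into differences in occupied sites. A call in late G1 and G2/M alone is a looser rule than a call in all 4 fractions. The cause of the other moves was not tested. The removal of faint shared reads and the use of late G1 and G2/M alone were chosen after seeing the data. No paired analysis was possible because each fraction has 1 library and no result comes from a test. With 9.34 occupied sites expected per window beyond 40 Mb in G2/M, depth of ligation events limits all comparisons of single windows.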
